A study of Mus musculus with 10 samples.

Results

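The genes described here are 10 genes of the cells that wrap brain vessels and of fibroblasts. They are the pericyte genes Pdgfrb, Rgs5, Kcnj8, Abcc9 and Notch3, the smooth muscle genes Acta2, Tagln and Myh11, and the fibroblast genes Dcn and Col1a1. They were taken by symbol from a count table of 45906 genes, and all 10 were present and passed the filter on low counts, as did 17409 genes in all. The endothelial genes Cldn5 and Flt1 were set beside them. The 10 libraries were made from the immune cell fraction of brains of male C57BL/6 mice. For 5 A53T libraries the mice had received an adeno-associated virus (AAV1/2) that carried human α-synuclein with the A53T mutation (haSyn), and for 5 EV libraries an AAV1/2 virus without it (Empty Vector). Injection took place at the age of 10 to 12 weeks in both groups, and RNA was isolated 16 weeks later, at 26 to 28 weeks. Per the labels' protocols, cells were released from substantia nigra and striatum with collagenase and taken from a Percoll gradient, and neither a cell sort nor the promoter that drives the transgene is named. The labels do not say whether each library is 1 mouse, so p-values measure the spread between these samples.

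Brain capillaries are tubes of endothelial cells embraced by pericytes, while arterioles carry a coat of smooth muscle. Endothelial cells secrete PDGF-B, which recruits pericytes through the receptor PDGFRB, and Notch ligands on the endothelium act on NOTCH3 of mural cells (pericytes and smooth muscle). Fibroblasts lie around larger vessels and in the meninges and make collagen I and the proteoglycan decorin. None of these cells is an immune cell, although the libraries are labelled as immune cells. In such bulk samples, fewer cells of a type and less RNA per cell cannot be told apart.

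The libraries held 12386305 to 21780086 counts, and 3 reads, the limit that a count of 0 allows, were 0.137 to 0.238 CPM (counts per 1000000 of the library size scaled by TMM, the trimmed mean of M values). These limits cover counting error only. The transgene row aSyn had 1217 to 2223 reads in A53T replicates 1, 2, 4 and 5, 10 reads in A53T replicate 3, and 0 or 1 read in the EV libraries. The summed CPM of 6 microglial markers, P2ry12 and Tmem119 among them, ranged from 309.7 to 5821 in A53T and from 338.6 to 2399 in EV. It was highest in A53T replicates 3 and 4. Vessel genes stood apart in another library: the sum of 17 endothelial genes was 1194 CPM in EV replicate 3, against 363.5 to 880 CPM in A53T and 410.9 to 509.6 CPM in the other EV libraries. Fold changes that rest on these libraries are given with and without them for the 10 genes. Counts over the wider pericyte, smooth muscle, fibroblast and endothelial lists are given likewise. The lists of signals to mural cells and of regulators of contractile genes, and the genes named from them, were fitted with all 10 libraries only.

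Mural genes lay around and below the endothelial genes in level, with Rgs5 above them, and the fibroblast genes lay lowest. Per kilobase of exon, the mean level over the 10 libraries was highest for Rgs5 (19 CPM per kb), followed by Cldn5 (13.7) and Flt1 (12.5). Next came the smooth muscle myosin Myh11 (10.6), Pdgfrb (6.81), Acta2 (6.71), Notch3 (4.61), Tagln (4.42), Abcc9 (2.81) and Kcnj8 (1.79), all in CPM per kb. Col1a1 (0.523 CPM per kb) and Dcn (0.272 CPM per kb) closed the order. Most neighbours in this order did not differ by more than the SD of their log2 difference over the 10 libraries. The exceptions were Rgs5 over Cldn5, higher in 8 of 10 libraries, and Kcnj8 over Col1a1, higher in 10 of 10.

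**Figure D1:**
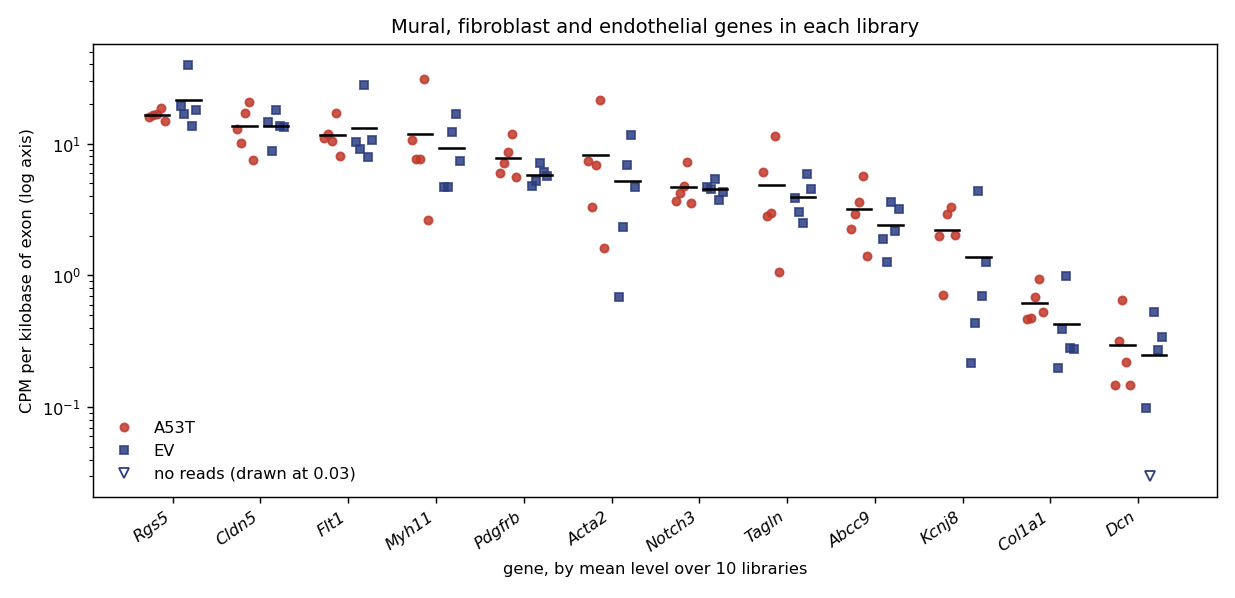
Level of each gene in each library, in CPM per kilobase of exon on a log axis, with A53T libraries as red circles and EV libraries as blue squares; black bars are group means (n = 5 each) and the open triangle is a library with no reads, drawn at 0.03. The groups overlap for every gene shown, and Acta2, Kcnj8 and Dcn spread most widely.

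The genes differed in how steady they were. Notch3 varied 2.04-fold between its lowest and highest library, Pdgfrb 2.49-fold and Rgs5 2.93-fold, close to Cldn5 (2.77-fold) and Flt1 (3.49-fold). Acta2 varied 31.5-fold and Kcnj8 20-fold. The SD of log2 CPM over the 10 libraries was 0.30 for Notch3 and 1.43 for Acta2, which lay at percentiles 13.8 and 89.1 of all tested genes, whose median SD was 0.62. A53T replicate 4 held the highest level of 6 of the 10 genes, namely Pdgfrb, Abcc9, Notch3, Acta2, Tagln and Myh11. EV replicate 3 held the highest level of Rgs5, Kcnj8 and Col1a1, and A53T replicate 3 that of Dcn.

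**Figure D2:**
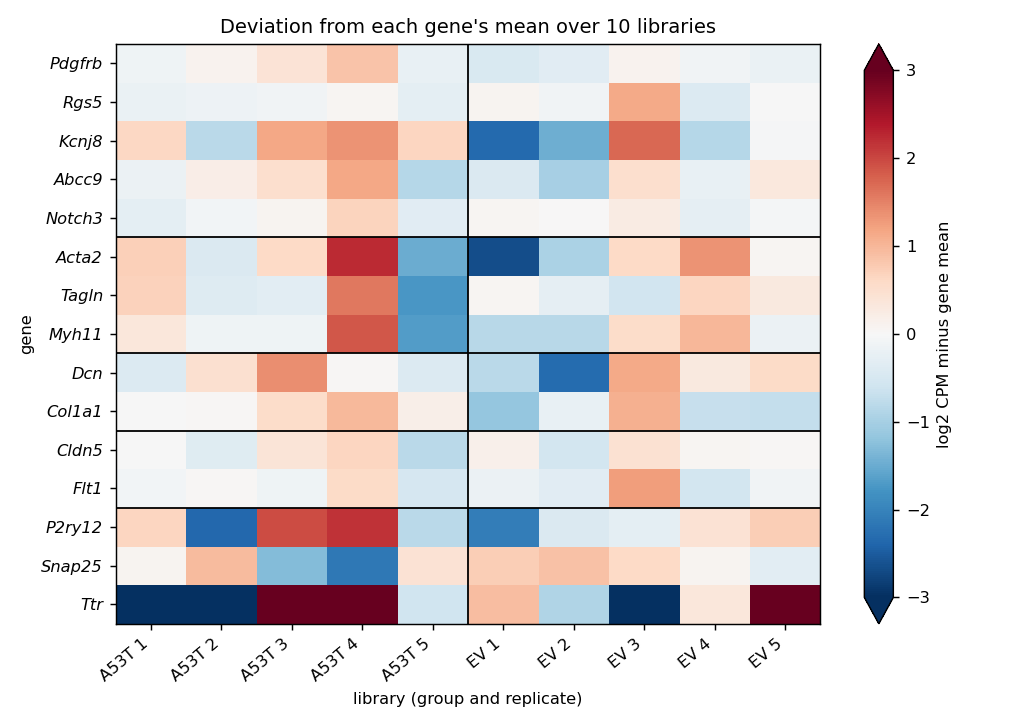
Log2 CPM of each gene in each library minus the gene's mean over the 10 libraries, with A53T libraries left of the vertical line and EV libraries right of it; horizontal lines separate pericyte, smooth muscle, fibroblast, endothelial and other cell type genes, and values beyond 3 take the end colours. The smooth muscle genes are darkest red in A53T replicate 4, Rgs5 and Flt1 are highest in EV replicate 3, and Ttr, of choroid plexus, is high in A53T replicates 3 and 4 and EV replicate 5.

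The comparison of A53T with EV asked whether the mural and fibroblast transcripts in the immune cell fraction differed when the virus carried mutant α-synuclein. None of the 10 genes passed the threshold of 0.05 in edgeR's quasi-likelihood test with Benjamini-Hochberg adjustment, where 0 of 17409 genes (0%) passed. At an unadjusted p under 0.05 the counts were 0 of the 10 genes and 378 of all genes (2.17%). DESeq2 called 0 of the 10 and 2 of 32637 genes, with 0 and 1006 (3.08%) at an unadjusted p under 0.05. On the deposited rlog values limma called 0 of the 10 and 0 of 17409 genes, with 0 and 448 (2.57%) at an unadjusted p under 0.05. The fitted log2 fold change was above 0 for 9 of the 10 genes, all but Rgs5, against 52.8% of all genes. The median over the 10 genes was 0.39 and over all tested genes 0.027. Without EV replicate 3 the fold change was above 0 for 9 of the 10 genes (51.2% of all genes) with a median of 0.50. The median was 0.24 (9 of 10 above 0) without EV replicate 1, 0.17 (8 of 10) without EV replicate 2 and 0.15 (7 of 10) with limma on rlog values. Without A53T replicate 4 it was above 0 for 5 of the 10 genes (51.8% of all genes) with a median of -0.018. Without A53T replicates 3 and 4 it was above 0 for 3 of the 10 (49.1% of all genes) with a median of -0.25. Without A53T replicate 3 alone, 8 of the 10 were above 0 with a median of 0.413. The median was 0.47, 0.402 and 0.509 without A53T replicates 1, 2 and 5, each with 9 of 10 above 0. It was 0.445 (8 of 10) without EV replicate 4 and 0.419 (9 of 10) without EV replicate 5.

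**Figure D3:**
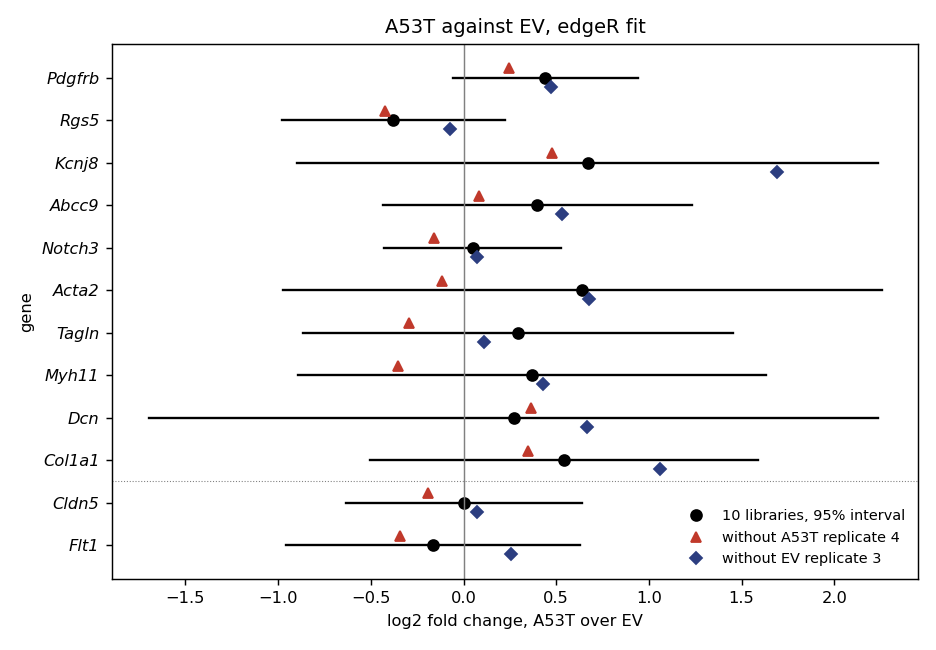
Log2 fold change of A53T over EV from the edgeR fit, with 10 libraries (black circles, 95% interval), without A53T replicate 4 (red triangles) and without EV replicate 3 (blue diamonds); the dotted line separates the mural and fibroblast genes from Cldn5 and Flt1. Every 95% interval spans 0, and the 3 smooth muscle genes, Notch3 and Cldn5 turn negative without A53T replicate 4.

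Among the receptors, Pdgfrb had the smallest p of the 10 genes. Pdgfrb encodes the PDGF receptor that pericytes need to stay on vessels and lies on the plus strand at chr18:61045127-61085067 (GRCm38.p6). It had 36.4, 43.4, 53.1, 72.2 and 34.3 CPM in A53T replicates 1 to 5, against 29.1, 31.8, 43.2, 37.5 and 34.9 CPM in EV replicates 1 to 5. In A53T 3 libraries, replicates 2, 3 and 4, lay above every EV library, and the groups overlapped. Its mean was 47.9 ± 15.5 CPM in A53T and 35.3 ± 5.46 CPM in EV (SD, n = 5 each). The log2 fold change was 0.44 ± 0.23 (SE, 95% interval -0.057 to 0.94; edgeR adjusted p = 0.957). It was 0.25 without A53T replicate 4 and 0.11 without A53T replicates 3 and 4.

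Notch3, the Notch receptor of mural cells whose mutations cause the small vessel disease CADASIL in humans, lies on the minus strand at chr17:32120820-32166896. It had 30.6, 35.5, 40.01, 60.4 and 29.6 CPM in A53T and 39.4, 38.0, 44.8, 31.4 and 36.0 CPM in EV. The EV values fell inside the range of the A53T values. Its log2 fold change was 0.050 ± 0.22 (SE, 95% interval -0.43 to 0.53; edgeR adjusted p = 0.979), but -0.16 without A53T replicate 4 and -0.011 without EV replicate 4. The opposite strand carries the non-coding genes Gm38585 (850 reads over the 10 libraries) and Gm41568 (119 reads, against 6889 of Notch3), and the sources used here do not state whether reads were counted by strand.

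Rgs5, a regulator of G protein signalling that is among the strongest pericyte markers, was the only one of the 10 with a negative fitted fold change. It lies on the plus strand at chr1:169655501-169695813. It had 72.1, 74.8, 76.1, 85.5 and 67.8 CPM in A53T, against 87.3, 76.1, 181, 61.9 and 82.3 CPM in EV. The A53T libraries lay close together, and EV replicate 3 stood above all others. Its log2 fold change was -0.38 ± 0.28 (SE, 95% interval -0.98 to 0.22; edgeR adjusted p = 0.957), and it shrank to -0.071 without EV replicate 3.

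Kcnj8 and Abcc9 encode the pore and the sulfonylurea receptor subunit of the ATP-sensitive potassium channel of pericytes and smooth muscle. They are neighbours on the minus strand of chromosome 6, at chr6:142564837-142571614 and chr6:142587862-142702766, with 16247 bases between them. Kcnj8 had 5.09, 1.82, 7.47, 8.42 and 5.16 CPM in A53T, against 0.553, 1.10, 11.1, 1.76 and 3.20 CPM in EV. All 5 A53T libraries lay above the EV median, and EV replicate 3 lay above all A53T libraries. The low EV levels rest on few reads, 8 in EV replicate 1 and 18 in EV replicate 2. For Kcnj8 the log2 fold change was 0.67 ± 0.72 (SE, 95% interval -0.90 to 2.23; edgeR adjusted p = 0.957). Leaving out EV replicate 3 moved it to 1.69 (edgeR adjusted p = 0.936), and leaving out EV replicate 1 or 2 to 0.34 or 0.39. Leaving out A53T replicates 3 and 4 gave 0.20.

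Abcc9 had 18.3, 23.9, 29.4, 46.3 and 11.4 CPM in A53T and 15.2, 10.2, 29.1, 17.7 and 25.9 CPM in EV. A53T replicates 3 and 4 lay above every EV library, and the other A53T libraries within the EV range. For Abcc9 the log2 fold change was 0.40 ± 0.38 (SE, 95% interval -0.44 to 1.23; edgeR adjusted p = 0.957), 0.082 without A53T replicate 4, and 0.26 and 0.18 without EV replicates 1 and 2.

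Each smooth muscle gene was highest in A53T replicate 4. Acta2, the actin of contractile smooth muscle, lies on the minus strand at chr19:34240336-34255585. It had 21.1, 9.44, 19.6, 61.0 and 4.54 CPM in A53T, against 1.94, 6.63, 19.4, 33.0 and 13.3 CPM in EV. The span within each group was wider than the difference between the group means, 23.1 ± 22.3 CPM in A53T and 14.9 ± 12.1 CPM in EV (SD, n = 5 each). For Acta2 the log2 fold change was 0.64 ± 0.74 (SE, 95% interval -0.98 to 2.26; edgeR adjusted p = 0.957). It was -0.12 without A53T replicate 4, 1.17 without EV replicate 4, and 0.28 and 0.38 without EV replicates 1 and 2.

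Contractile genes of smooth muscle are known to be switched on by serum response factor at a short element called the CArG box, which is why these sites are shown. A search covered the 250 bases before an Acta2 start listed by RefSeq (chr19:34255374-34255623, GRCm38.p6, minus strand). It found 2 sites that match the box with 1 core base other than A or T, and 0 that match it in full. They lie at -84 to -75 and -34 to -25 relative to that start, where capitals mark the 10 bases of the box and lower case its flanks.
Acta2 CArG-like site at chr19:34255438-34255467, minus strand: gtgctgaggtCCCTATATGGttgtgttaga
Acta2 CArG-like site at chr19:34255388-34255417, minus strand: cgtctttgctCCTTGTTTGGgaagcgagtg
The start used lies inside the Acta2 gene span given above (chr19:34240336-34255585), so most of the window and both sites lie within the gene, not before it. Both sites also lie within an exon annotated as UTR of a longer Acta2 transcript in GENCODE M21 (chr19:34255290-34255590). As a pattern the box reads the same on both strands, although the letters of the 2 sites shown do not. In the same window, 1.47% of 32851 promoters held a full box, 8.59% a box with at most 1 such base, and 0.67% 2 or more. The windows of Rgs5, Kcnj8, Abcc9, Notch3, Cldn5 and Flt1 held 0 boxes of either kind. The windows of Abcc9 and Flt1 likewise lie inside the deposited spans of these genes. Those of Pdgfrb, Tagln, Myh11, Dcn and Col1a1 were not analysed here, so Acta2 was the only smooth muscle gene searched. A match is a description of the letters and not a measured site of binding.

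Myh11, the myosin heavy chain of smooth muscle, lies on the minus strand at chr16:14194527-14292188. It had 80.6, 57.9, 57.8, 231 and 19.8 CPM in A53T and 35.4, 35.5, 92.1, 127 and 55.6 CPM in EV. A53T replicate 4 lay above and A53T replicate 5 below all EV libraries. For Myh11 the log2 fold change was 0.37 ± 0.58 (SE, 95% interval -0.89 to 1.63; edgeR adjusted p = 0.957). It was -0.35 without A53T replicate 4 and 0.56 without A53T replicate 5, and it was 0.13, 0.14 and 0.71 without EV replicates 1, 2 and 4.

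Tagln, the actin-binding protein transgelin, lies on the minus strand at chr9:45929628-45936058. It had 9.60, 4.52, 4.74, 18.0 and 1.68 CPM in A53T and 6.16, 4.85, 3.96, 9.34 and 7.22 CPM in EV. As for Myh11, the A53T values lay on both sides of the EV values, with replicate 4 highest and replicate 5 lowest. For Tagln the log2 fold change was 0.29 ± 0.53 (SE, 95% interval -0.87 to 1.45; edgeR adjusted p = 0.957), and -0.29 without A53T replicate 4. Tagln overlaps the protease gene Pcsk7 on the opposite strand by 2480 bases. Pcsk7 had 3692 reads over the 10 libraries and Tagln 1322, so the Tagln values are uncertain if reads were counted without strand.

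The fibroblast genes had the fewest reads of the 10 genes. Col1a1, the main chain of collagen I, lies on the plus strand at chr11:94936224-94953042. It had 2.75, 2.83, 4.10, 5.55 and 3.11 CPM in A53T, against 1.18, 2.33, 5.86, 1.66 and 1.62 CPM in EV. All 5 A53T libraries lay above the EV median and EV replicate 3 above all A53T libraries, the order seen for Kcnj8. The log2 fold change was 0.54 ± 0.48 (SE, 95% interval -0.50 to 1.59; edgeR adjusted p = 0.957). It was 1.06 without EV replicate 3 (edgeR adjusted p = 0.936), 0.31 without EV replicate 1 and 0.35 without A53T replicate 4. Leaving out A53T replicates 3 and 4 together gave 0.20.

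Kcnj8 and Col1a1 were thus 2 of the 10 genes with an unadjusted edgeR p under 0.05 once EV replicate 3 was left out, against 369 of 17923 genes (2.06%) in that fit. EV replicate 3 held the highest level of both genes, so leaving it out lowered their EV mean and spread. The smaller p-values follow in part from that omission, and the count cannot show an excess over all genes. Dcn, which encodes decorin, lies on the plus strand at chr10:97479500-97518163 and had 104 reads over all libraries. A53T replicates 1 to 5 held 6, 10, 30, 10 and 5 reads, and EV replicates 1 to 5 held 3, 0, 14, 11 and 15. At this depth Dcn shows little beyond its presence. The log2 fold change was 0.27 ± 0.90 (SE, 95% interval -1.70 to 2.24; edgeR adjusted p = 0.971), and it was -0.24 without A53T replicate 3 and -0.10 without EV replicate 2.

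The endothelial genes also overlapped between the groups. Cldn5, a claudin of the tight junctions of the blood-brain barrier, had 18.4, 14.4, 24.3, 29.3 and 10.6 CPM in A53T and 20.5, 12.6, 25.5, 19.2 and 19.1 CPM in EV, with a log2 fold change of 0.0019 ± 0.29 (SE, 95% interval -0.63 to 0.64; edgeR adjusted p = 1.00). The fitted value of Cldn5 lies near 0 and changed sign in 12 of 17 alternatives. Flt1, the VEGF receptor 1, had 151, 164, 144, 237 and 111 CPM in A53T and 142, 126, 382, 109 and 147 CPM in EV. Its log2 fold change was -0.17 ± 0.36 (SE, 95% interval -0.96 to 0.63; edgeR adjusted p = 0.958), and 0.26 without EV replicate 3. EV replicate 3 thus held the highest level of Flt1 as well as of Rgs5 and Kcnj8.

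Set against the endothelial genes of the same library, Rgs5, Notch3, Abcc9 and Pdgfrb spread less than Acta2 and Kcnj8. Each gene's CPM was divided by the geometric mean of the CPM of Cldn5 and Flt1, as a description without a test. For Rgs5 this ratio was 1.03 to 1.98 in A53T (mean 1.44 ± 0.353) and 1.35 to 1.91 in EV (mean 1.65 ± 0.226; SD, n = 5 each). For Pdgfrb it was 0.692 to 1.00 in A53T (mean 0.870 ± 0.112) and 0.438 to 0.819 in EV (mean 0.651 ± 0.164). The Pdgfrb ratio thus overlapped between the groups, and EV replicate 3 held its lowest value. For Acta2 the ratio ran from 0.132 to 0.733 in A53T and from 0.0359 to 0.720 in EV, a 20.4-fold span over the 10 libraries. For Myh11 it was highest in EV replicate 4 (2.78) and A53T replicate 4 (2.77), and at most 1.53 in the other libraries.

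**Figure D4:**
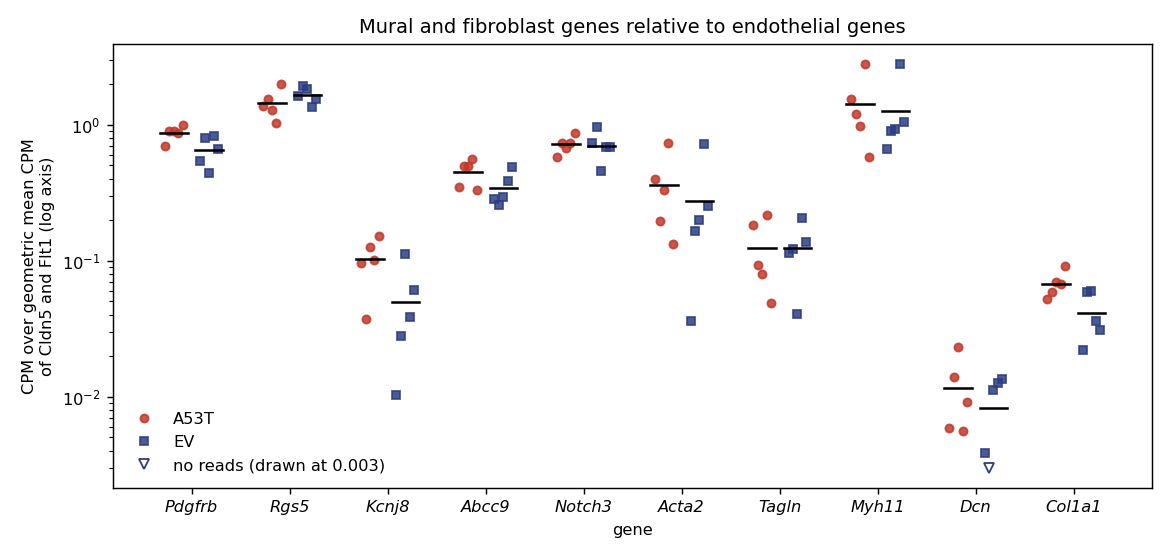
CPM of each mural or fibroblast gene divided by the geometric mean CPM of Cldn5 and Flt1 in the same library, on a log axis, with A53T as red circles, EV as blue squares, bars for group means (n = 5 each) and an open triangle for no reads, drawn at 0.003. Rgs5, Notch3, Abcc9 and Pdgfrb span 1.93-fold to 2.28-fold, while Acta2 and Kcnj8 span 20.4-fold and 14.7-fold.

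Over the 10 libraries the genes formed loose pairs. Of 91 pairs among the 10 genes, Cldn5, Flt1, the microglial P2ry12 and the neuronal Snap25, 6 had an adjusted p under 0.05 for Pearson's r of log2 CPM (Benjamini-Hochberg over the 91 pairs, permutation tests with 100000 resamples), and 3 also for Spearman's rho. Acta2 followed Myh11 (r = 0.890, permutation p = 6e-04, adjusted p = 0.0273; rho = 0.903, permutation p = 0.00075, adjusted p = 0.0306). Without A53T replicate 4 and EV replicate 1, the libraries farthest from the Acta2 median, r was 0.944. Kcnj8 followed Col1a1 (r = 0.858, permutation p = 0.00153, adjusted p = 0.0324; rho = 0.891, permutation p = 0.00101, adjusted p = 0.0306), with r = 0.839 without EV replicates 1 and 2. Both relations kept their size with group means removed (r = 0.902 and 0.815). All values are shares of the same libraries, which these permutation tests leave aside.

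Pdgfrb followed Abcc9 (r = 0.849, permutation p = 0.00134, adjusted p = 0.0324; rho = 0.855, permutation p = 0.0028, adjusted p = 0.0637), with r = 0.701 without A53T replicates 3 and 4. Abcc9 followed Cldn5 (r = 0.831, permutation p = 0.00322, adjusted p = 0.0488; rho = 0.770, permutation p = 0.0129, adjusted p = 0.130), with r = 0.703 without A53T replicate 4 and EV replicate 2. Rgs5 followed Flt1 by Pearson's r (0.902, permutation p = 0.00178, adjusted p = 0.0324) but less by rank (rho = 0.588, permutation p = 0.0807, adjusted p = 0.257). Its r was 0.573 without EV replicates 3 and 4, and 0.681 without EV replicate 3 alone, so the relation rests in part on that library. The largest rho in size joined P2ry12 and Snap25 (r = -0.878, permutation p = 0.00048, adjusted p = 0.0273; rho = -0.927, permutation p = 0.00037, adjusted p = 0.0306).

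**Figure D5:**
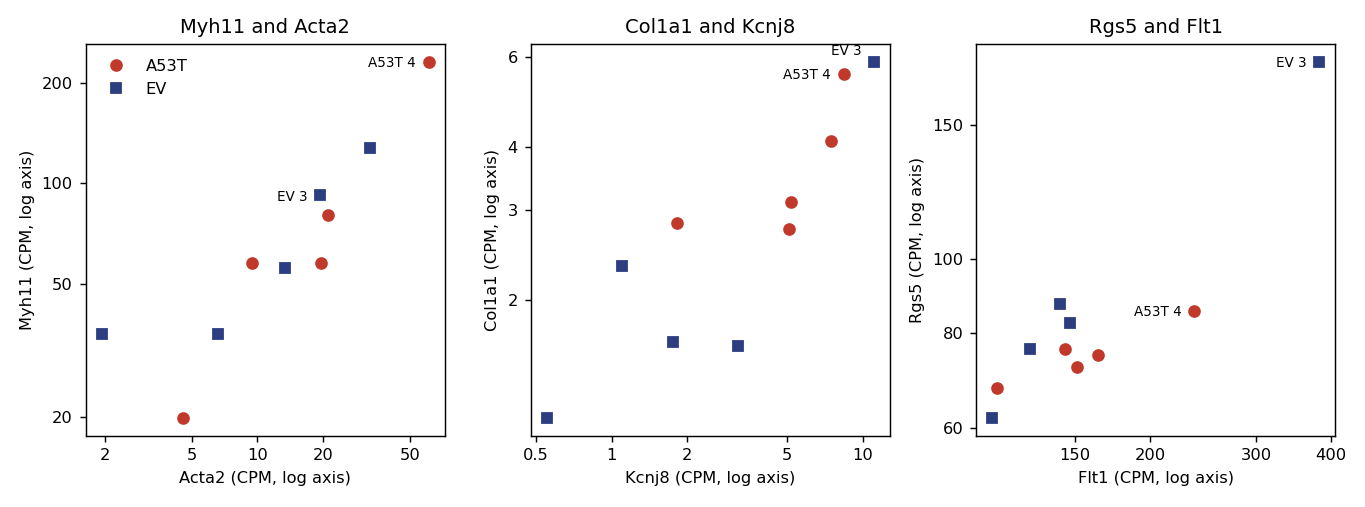
CPM of 3 pairs of genes in each library, on log axes, with A53T as red circles and EV as blue squares and A53T replicate 4 and EV replicate 3 labelled. Acta2 and Myh11 rise together except among the libraries lowest in Acta2, Kcnj8 and Col1a1 rise together with more scatter, and Rgs5 and Flt1 are both highest in EV replicate 3.

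Relations of mural genes with the microglial gene P2ry12 did not pass the adjusted threshold. The r with P2ry12 was 0.780 for Acta2 (permutation p = 0.00829, adjusted p = 0.0734; rho = 0.782, permutation p = 0.0106, adjusted p = 0.122), 0.561 without A53T replicate 4 and EV replicate 1. For Pdgfrb it was 0.636 (permutation p = 0.0467, adjusted p = 0.138; rho = 0.527, permutation p = 0.123, adjusted p = 0.279), and 0.044 without A53T replicates 3 and 4. For Rgs5 it was -0.053 (permutation p = 0.872, adjusted p = 0.902; rho = 0.0909, permutation p = 0.810, adjusted p = 0.867), and 0.126 without EV replicates 3 and 4. The Pdgfrb relation with P2ry12 rested on the libraries left out. Relations of the 10 genes with the neuronal gene Snap25 did not pass the adjusted threshold either. Their r was -0.81 for Pdgfrb (permutation p = 0.00864, adjusted p = 0.0734), and 0.039 without A53T replicates 3 and 4. It was -0.719 for Abcc9 (permutation p = 0.0177, adjusted p = 0.0999) and -0.685 for Acta2 (permutation p = 0.0284, adjusted p = 0.118). Rgs5 was the only one of the 10 with r above 0 (0.096). Its r with Snap25 was -0.29 without EV replicate 3 and -0.346 without EV replicates 3 and 4.

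Wider lists of each cell type were counted without the 10 genes and without Cldn5 and Flt1. Of all tested genes, 52.8% had a fitted fold change above 0. This share was 51.8% without A53T replicate 4, 51.2% without EV replicate 3 and 49.1% without A53T replicates 3 and 4. It was 49% and 48.3% without EV replicates 1 and 2. Of 14 other pericyte genes, all tested, 9 had a fitted fold change above 0 and 5 below, with a median log2 fold change of 0.22 and 0 called. Foxf2, a transcription factor of brain pericytes, was at 5.24 ± 2.45 CPM in A53T and 2.99 ± 0.768 CPM in EV (log2 fold change 0.81 ± 0.38, SE; edgeR adjusted p = 0.957). Mcam, an adhesion molecule of mural and endothelial cells, was at 29.2 ± 18.1 CPM in A53T and 16.9 ± 6.88 CPM in EV (log2 fold change 0.79 ± 0.42, SE; edgeR adjusted p = 0.957). In A53T, Mcam was at 46.9 and 50.3 CPM in replicates 3 and 4 and at 12.1 to 22.6 CPM in the other libraries. Without A53T replicate 4 the median of this list was -0.076 with 4 of 14 above 0, and without EV replicate 3 it was 0.59 with 12 of 14 above 0. Without A53T replicates 3 and 4 it was -0.21 with 3 of 14 above 0. Without EV replicate 1 it was 0.029 and without EV replicate 2 it was 0.0054, each with 7 of 14 above 0.

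Of 12 other smooth muscle genes, 10 were tested, and 9 had a fitted fold change above 0 (median 0.27, 0 called). Mylk, the myosin light chain kinase, was at 32.1 ± 22.7 CPM in A53T and 23.0 ± 7.797 CPM in EV (log2 fold change 0.48 ± 0.42, SE; edgeR adjusted p = 0.957). The light chain gene Myl9 was at 7.98 ± 6.45 CPM in A53T and 5.50 ± 2.699 CPM in EV, and the caldesmon gene Cald1 at 72.4 ± 26.2 CPM in A53T and 60.6 ± 23.1 CPM in EV (SD, n = 5 each). Without A53T replicate 4, 3 of the 10 were above 0 and the median was -0.044, and without EV replicate 3, 10 of 10 were above 0 and the median was 0.45. With A53T replicates 3 and 4 left out, 3 of 11 were above 0 with a median of -0.11, and the median was 0.13 and 0.11 without EV replicates 1 and 2, each with 8 of 10 above 0.

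Of 19 other fibroblast genes, 13 were tested, 8 with a fitted fold change above 0 and 5 below (median 0.14, 0 called). The matrix gene Fbln1 was at 3.71 ± 0.898 CPM in A53T and 6.83 ± 4.18 CPM in EV (log2 fold change -0.88 ± 0.44, SE; edgeR adjusted p = 0.957). The collagen gene Col5a1 was at 1.53 ± 0.644 CPM in A53T and 3.08 ± 1.497 CPM in EV, and the collagen VI gene Col6a3 at 20.9 ± 17.9 CPM in A53T and 10.4 ± 6.66 CPM in EV (SD, n = 5 each). In A53T, Col6a3 was at 41.9 and 37.6 CPM in replicates 3 and 4 and at 3.42 to 14.9 CPM in the other libraries. Without A53T replicate 4, 3 of the 13 were above 0 and the median was -0.26, and without EV replicate 3, 9 were above 0 and the median was 0.24. Without A53T replicates 3 and 4, 3 were above 0 with a median of -0.50, and without EV replicate 2, 5 were above 0 with a median of -0.096. The count was 6 of 13, with a median below 0, without EV replicate 4 (-0.056), with the replicate block (-0.018), with a term for libraries with at least 100 Bpifa2 reads (-0.017) and with limma on rlog values (-0.046).

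Of 15 other endothelial genes, all tested, 5 had a fitted fold change above 0 and 10 below (median -0.041, 0 called), and without EV replicate 3, 11 were above 0 with a median of 0.33. The count was 9 without A53T replicate 1 or 5, 2 without A53T replicate 4 or EV replicate 2, 3 without EV replicate 5, and 1, with a median of -0.42, without A53T replicates 3 and 4.

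Among 18 genes of the signals that reach mural cells, all tested, 10 had a fitted fold change above 0 and 8 below (median 0.076, 0 called). Hey2, a Notch target that acts as a transcriptional repressor, was at 4.28 ± 1.43 CPM in A53T and 7.51 ± 2.97 CPM in EV (log2 fold change -0.81 ± 0.36, SE; edgeR adjusted p = 0.957). It was the only gene of this list with an unadjusted edgeR p under 0.05, which 2.17% of all genes had. Pdgfb, the ligand of PDGFRB, was at 77.7 ± 62.3 CPM in A53T and 35.8 ± 19.4 CPM in EV (log2 fold change 1.12 ± 0.62, SE; edgeR adjusted p = 0.957). Pdgfb had 62.4, 13.8, 140.6, 145.5 and 26.1 CPM in A53T and 13.4, 21.8, 33.9, 49.5 and 60.5 CPM in EV. The summed microglial markers were at 2253, 309.7, 5133, 5821 and 910.9 CPM in A53T and at 338.6, 1035, 734.8, 1867 and 2399 CPM in EV. Both were highest in A53T replicates 3 and 4, and the part of microglia in the Pdgfb values was not tested. Nrarp, a Notch target that dampens the pathway, was at 12.2 ± 3.79 CPM in A53T and 16.8 ± 4.83 CPM in EV. Other Notch targets of the list were fitted in both directions, with a log2 fold change of 0.65 for Hes1, 0.11 for Hey1 and -0.18 for Heyl, and none passed the threshold.

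RNA of other tissues was also present, and its relation to the levels of the 10 genes over the libraries was not tested. The sum of 6 choroid plexus and ependymal genes, Ttr and Clic6 among them, was 4.38 to 430.6 CPM in A53T and 9.98 to 74.6 CPM in EV. It was highest in A53T replicate 4, where the smooth muscle genes were also highest, and second highest in A53T replicate 3. In EV replicate 4, where Acta2 and Myh11 had their highest EV levels (33.0 and 127 CPM), it was 17.7 CPM. The sum of 9 salivary gland genes, Bpifa2 and Smr3a among them, was 4.11 to 374.6 CPM in A53T and 5.78 to 362.2 CPM in EV. Among the EV libraries it was highest in replicate 3, where Rgs5, Kcnj8, Col1a1 and Flt1 were highest. Over the 10 libraries it was highest in A53T replicate 2, where Kcnj8 was at 1.82 CPM, its lowest A53T level, and where none of the 10 genes was highest. With a term for libraries with at least 100 Bpifa2 reads, the log2 fold change was 0.38 for Pdgfrb and 0.50 for Acta2, and above 0 for 9 of the 10 genes (53.6% of all genes) with a median of 0.29. Haemoglobin and other erythrocyte genes, 5 in all, summed to 51.1 to 160.6 CPM in A53T and 37.5 to 166.6 CPM in EV, with the highest values of their groups in A53T replicate 4 and EV replicate 3. The part of choroid plexus and erythrocyte RNA in the results was not tested. Of the markers of gland myoepithelial cells, which also contain Acta2, Krt5 had 0 reads in all 10 libraries. Krt14 had 26 reads in A53T replicate 5 and 0 in the others, and Krt17 had 3 reads in A53T replicate 2 and 0 in the others. Trp63 had 7, 2, 2, 6 and 40 reads in A53T and 0, 4, 34, 8 and 88 reads in EV. Cnn1, which smooth muscle also expresses, had 5 to 36 reads in A53T and 0 to 15 reads in EV.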

How the data were processed

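The authors deposited raw read counts per gene and, in a second table, regularized logarithms (rlog) of them on a log2 scale, per the file headers and values. Tools named in the submitters' processing notes are featureCounts 1.6.4, STAR 2.7.2b, cutadapt 2.5 and, with builds GRCm38.p6 and mm10, DESeq2 1.24.0. Their roles and any use of strand are not given in the sources used here. Positions and exon lengths are those deposited, with chromosome numbers from RefSeq where start and end matched.

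Counts were fitted with edgeR 4.0.16 in R 4.3.3 (TMM, default filter on low counts, robust quasi-likelihood F test, Benjamini-Hochberg over 17409 genes). CPM are counts over TMM-scaled library sizes. The standard error is the size of the fold change over the root of its F statistic, and log2 CPM used a prior count of 2. Differences between neighbours in the level order were taken after adding 0.01 CPM per kb. Promoter sequence is from RefSeq (GRCm38.p6).

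No pair of libraries within a group agreed within sampling noise. 17 alternatives were run, including DESeq2 1.42.0, limma 3.58.1 on rlog values and leaving out each library. All 10 genes are reported, and from each list of other genes up to 3 of smallest p. The genes and lists were chosen with earlier results of these data known.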

Additional observations from a re-analysis of the deposited data

Results flagged for a closer look

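In 24 sets of 5 libraries (12 genes in each group), 5 had a highest library whose gap to the next was larger than Dixon's 95% limit of 0.71 of the range. Chance flags about 1 in 20 sets that are unrelated and hold normally distributed values. The limit was applied to CPM without a logarithm, and these genes share the same libraries and some follow each other. The count of 5 is therefore a description and cannot show an excess over chance. In EV replicate 3 lay 4 of the 5 flagged values. Rgs5 was at 181.5 CPM there and at most 87.3 CPM in the other EV libraries, and Flt1 at 381.7 CPM against at most 147 CPM. Kcnj8 was at 11.1 CPM there and at most 3.20 CPM in the others, and Col1a1 at 5.86 CPM against at most 2.33 CPM. The fifth was Myh11 in A53T replicate 4, at 231 CPM where the other A53T libraries had at most 80.6 CPM.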

How the results depend on the processing

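The count of genes called was 0 with edgeR and 0 to 1 when a single library was left out, the 1 being the transgene aSyn without A53T replicate 3. It was 1 (aSyn) with the replicate number as a block and without A53T replicates 3 and 4, and 2 with DESeq2 (aSyn and B430306N03Rik). No gene of the 10 was called in any of the 17 alternatives. Replicate numbers did not pair the libraries: deviations of same-numbered libraries correlated between -0.367 and 0.309, and 1 of 10 libraries correlated best with its own number. Log2 fold changes that changed sign were as follows. Without A53T replicates 3 and 4 they were -0.14 for Abcc9, -0.25 for Notch3, -0.34 for Acta2, -0.26 for Tagln, -0.39 for Myh11, -0.26 for Dcn and -0.42 for Cldn5. With the replicate block they were -0.0095 for Tagln and -0.053 for Cldn5, with rlog values -0.017 for Notch3, -0.028 for Tagln and -0.059 for Cldn5. For Cldn5, whose value is near 0, they were also -0.041 with DESeq2, -0.041 with its size factors and -0.045 with a term for libraries holding at least 100 Bpifa2 reads. Leaving out 1 library gave ranges of -0.16 to 0.13 for Notch3, -0.12 to 1.17 for Acta2, -0.29 to 0.49 for Tagln, -0.35 to 0.71 for Myh11, -0.24 to 0.66 for Dcn, -0.19 to 0.10 for Cldn5 and -0.34 to 0.26 for Flt1. Pdgfrb, Kcnj8 and Col1a1 stayed above 0 and Rgs5 below 0 in all 17 alternatives, with ranges under single omissions of 0.25 to 0.52, 0.34 to 1.69, 0.31 to 1.06 and -0.50 to -0.071. Without A53T replicates 3 and 4 these 4 values were 0.11, 0.20, 0.20 and -0.45, and the replicate block gave 1.21 for Kcnj8. Why DESeq2 and rlog values gave other values was not tested. Without a filter on low counts, every gene kept its sign. Depth limits Dcn most, with 0 to 30 reads a library.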

Other observations

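Other genes shared the profiles of single members over the 10 libraries, given here as a description among 14650 genes whose mean log2 CPM was 1 or more (14651 for Dcn, itself below that level). The genes most like Acta2 were Smtn, which encodes the smooth muscle protein smoothelin (Pearson r = 0.969), Nutf2-ps1 (0.963) and Lgals3bp (0.947). Myh11 ranked 64 in that order and Tagln 2704. The genes most like Rgs5 were Akap12 (0.946), a scaffold for protein kinase A, Adgrl4 (0.943), an adhesion receptor of endothelial cells, and Zfp950 (0.942). Flt1 ranked 16 and Pdgfrb 4950. Those most like Dcn were Zfp119a (0.924), Nit1 (0.917) and Arid4b (0.908), on few Dcn reads.

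Of 8 regulators of contractile genes, 5 had a fitted log2 fold change above 0 and 3 below (median 0.097, 0 called by edgeR with Benjamini-Hochberg adjustment, 1 at an unadjusted p under 0.05). Of all tested genes, 52.8% were above 0 and 2.17% had an unadjusted edgeR p under 0.05. Rhoa, a small GTPase upstream of actin assembly, was at 112 ± 34.9 CPM in A53T and 76.7 ± 13.5 CPM in EV (SD, n = 5 each; log2 fold change 0.55 ± 0.24, SE; edgeR adjusted p = 0.957). It is made by most cell types.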
